A study of Mus musculus with 6 samples.

Results

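Cholesterol and fatty acid synthesis was described here through 28 genes, chosen by name as a working list of the pathway and matched by gene symbol in the table of normalized counts. All 28 were found among the 55471 genes of the table, and all 28 were among the 18664 genes tested. They comprise 18 genes of sterol synthesis, 6 of fatty acid synthesis and 4 regulators of both routes. The libraries are bulk RNA-seq of YFP-positive cells sorted by FACS from the subgranular zone (SGZ), the layer of the dentate gyrus that holds the neural stem and progenitor cells of the hippocampus. There were 3 libraries from 3xTg;Nestin-YFP mice and 3 from NTG;Nestin-YFP mice, all at postnatal day 35 and 10 days after tamoxifen, and the replicates are biological replicates.

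The 3xTg line is a mouse model of Alzheimer disease that carries human mutant APP, MAPT and PS1. NTG mice lack these transgenes and came from a colony of their own, so that genotype and colony cannot be told apart. The strain label of all 6 samples is B6129SF2/J. Mice of both groups also carried Nestin-CreERT2 and the R26 EYFP reporter and received tamoxifen, and the sorted cells are therefore those in which the Nestin-driven Cre was active, together with their progeny up to the time of sorting. Whether each library pooled several animals is not given in the sources used here.

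Cells build cholesterol from acetyl-CoA. The first enzymes make mevalonate and isoprenoid units, squalene synthase commits these to sterols, and a chain of oxidations and reductions then turns lanosterol into cholesterol. Fatty acid synthesis draws on the same acetyl-CoA. Both routes are controlled by the SREBP transcription factors, which Scap escorts out of the endoplasmic reticulum when sterols are low and which Insig proteins hold back when sterols are high. In the brain, where cholesterol does not cross from the blood, glia and progenitors make their own, and myelinating oligodendrocytes make large amounts.

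SREBPs act at the promoters of these genes beside the factor NF-Y, whose binding motif is CCAAT. At least 1 window of 300 bases, from 250 bases before an annotated start to 50 after it (RefSeq, GRCm38.p6), was at hand for 23 genes. Fdft1, Fdps, Scd1, Scd2 and Sqle, the rest of the 28, were not matched. Dhcr7, Pmvk, Scap and Srebf1 had more than 1 window, and a match in any of them was counted. The CCAAT matches of Dhcr7 lay only in a window inside the gene (chr7:143829964-143830263). The only Acaca window (chr11:84195188-84195487) also lies inside its gene. Both strands were searched for TCACNCCAC (a sterol regulatory element), CCAAT and CACGTG (an E-box). Each motif was counted on its own, also where matches of different motifs share bases. CCAAT stood in a window of 19 of the 23 genes, 14 of the 15 sterol genes among them, and in 41.1% of all genes with a window (37.4% of all windows of this length). CACGTG stood in 5 of the 23 (Hsd17b7, Sc5d, Dhcr7, Scap and Insig1) and in 8.09% of all genes with a window (7.15% of windows), and TCACNCCAC in 1 of the 23 (Hmgcs1) and in 1.44% of all genes with a window (1.24% of windows). A match of letters is a description and not a binding site. The 250 bases before the start are shown for 3 sterol genes that come up again among the library values, Hmgcs1 and Nsdhl with higher means in 3xTg cells and Mvd with a lower one, so that the spacing of the motifs can be compared. Capitals mark TCACNCCAC and CCAAT on either strand (CCAAT reads ATTGG on the other strand), and each sequence runs 5′ to 3′ on the strand of its gene.
Hmgcs1, chr13:119690101-119690350, plus strand: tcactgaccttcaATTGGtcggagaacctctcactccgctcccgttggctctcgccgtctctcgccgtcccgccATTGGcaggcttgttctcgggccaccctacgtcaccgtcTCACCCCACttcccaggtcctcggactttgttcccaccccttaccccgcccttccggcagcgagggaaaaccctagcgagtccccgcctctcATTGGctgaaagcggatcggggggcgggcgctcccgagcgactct
Nsdhl, chrX:72918271-72918520, plus strand: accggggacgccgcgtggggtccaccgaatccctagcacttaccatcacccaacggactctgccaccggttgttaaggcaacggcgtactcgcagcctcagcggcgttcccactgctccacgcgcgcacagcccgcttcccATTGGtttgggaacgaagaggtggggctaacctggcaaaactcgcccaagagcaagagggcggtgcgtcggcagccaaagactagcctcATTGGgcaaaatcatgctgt
Mvd, chr8:122443423-122443672, minus strand: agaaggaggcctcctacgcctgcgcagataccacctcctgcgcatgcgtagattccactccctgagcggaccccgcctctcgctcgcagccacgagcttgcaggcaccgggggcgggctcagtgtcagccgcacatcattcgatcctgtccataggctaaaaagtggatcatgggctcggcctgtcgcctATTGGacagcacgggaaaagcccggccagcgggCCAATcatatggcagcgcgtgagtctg

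In Hmgcs1 the sterol regulatory element began 137 bases before the start, among CCAAT boxes at 237, 176 and 45 bases before it. Mvd had CCAAT boxes at 60 and 27 bases before the start and Nsdhl at 109 and 20 bases before it. After the start, outside the printed bases, further CCAAT boxes lay at 10 bases in Hmgcs1 and at 8 and 34 bases in Nsdhl. Idi1, the gene with the highest fold change of the 28, had CCAAT boxes at 45 and 14 bases before its start and no match to the other 2 motifs. CCAAT boxes within 60 bases of the start were thus found both in genes with higher means in 3xTg cells and in Mvd, with a lower one.

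The libraries held 53063475 to 81800375 assigned reads in 3xTg (median 61238720) and 32731794 to 42576455 in NTG (median 33530704), so that every 3xTg library was deeper than every NTG library. Even the lowest library value of any of the 28 genes was a normalized count of 1030 (Fdps), and counting error was small for all of them. All 11 markers of neural stem cells and radial glia, Nes, Sox2 and Hopx among them, were detected in every library. So were all 10 markers of astrocytes and all 10 of myelinating oligodendrocytes. Detection did not set these lists apart, since only the red blood cell list had a marker at 0 in any library. Sox2, Hopx and Sox9 were lower in every 3xTg library than in every NTG library (log2 fold changes -0.41, -0.37 and -0.52). Tfap2c was higher in every one (0.45). Those are 3 lower and 1 higher of the 11, against 12.6% and 15.1% of all tested genes. By limma, Tie1, Cldn5 and Eng passed as lower in 3xTg among 10 endothelial markers, whose fold changes were all below 0. These 10 had a summed normalized count of 3840 to 6383 in 3xTg and 8018 to 9936 in NTG. Of 7 pericyte and smooth muscle markers tested, 2 were lower (summed count 18027 to 30163 in 3xTg, 32523 to 41540 in NTG). Mgp of the 7 fibroblast markers tested, P2ry12 of the 10 microglia markers and Cspg4 of the 8 oligodendrocyte precursor markers were also lower. No marker of the astrocyte, progenitor, neuron, stem cell, myelin or red blood cell lists passed by limma. With DESeq2 (7.77% of all genes with an adjusted p passed), 9 of the 10 endothelial markers passed as lower. So did 1 stem cell marker, 1 red blood cell marker, 2 neuron markers, 2 pericyte markers and 3 fibroblast markers. As higher, 1 progenitor marker and 1 neuron marker passed. Fold changes were below 0 for every tested pericyte, fibroblast and microglia marker (median log2 fold changes of -1.22, -0.48 and -0.31). Of the 8 oligodendrocyte precursor markers 5 were below 0. All 5 red blood cell markers tested had a fold change below 0 with an unadjusted limma p under 0.05 (median log2 fold change -1.07). Myelinating oligodendrocyte markers set 1 library apart: their summed count was 309927 in NTG replicate 3, against 606939 to 667597 in the other 5 libraries. Oligodendrocyte precursor markers were also lowest there, at 40531 against 54538 to 92465. Replicate 1 of 3xTg differed from 3xTg replicates 2 and 3 in other lists. Its sums were 24362 against 35339 and 40870 for progenitor markers, and 30163 against 18027 and 18380 for pericyte markers. For red blood cell markers they were 2059 against 715 and 1120. The part of these other cells in the results below was not tested, and in bulk RNA fewer cells of a type and less RNA per cell cannot be told apart.

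Per length of exon, the genes of the pathway covered a wide range (normalized count per kb of exon, mean of the 6 libraries). Scd2, the main stearoyl-CoA desaturase of the brain, had by far the highest level, 34161 per kb in 3xTg and 31521 in NTG. Srebf1, which encodes the SREBP that acts mainly on fatty acid genes, came next by the mean of the 6 libraries. It had 5819 in 3xTg, below Msmo1, and 7517 in NTG. Msmo1, the methylsterol monooxygenase, led the sterol genes with 6330 in 3xTg and 5624 in NTG.

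The lowest levels were those of Acaca, acetyl-CoA carboxylase, at 289 per kb in 3xTg and 211 in NTG, and of Fdps, farnesyl diphosphate synthase, at 273 in 3xTg and 302 in NTG. A processed pseudogene, Gm5182, is 99.2% identical to Acaca over 6118 bases and was counted at 9.76 in 3xTg and 9.33 in NTG on average. That stretch is 64.3% of the longest Acaca transcript, and how its reads were divided was not tested. Fdps shares 1124 exon bases (26.7% of its exons) on the same strand with Gm43738, a gene annotated as protein coding. Gm43738 had a mean normalized count of 0.12. Whether reads of the shared bases were lost from the Fdps count was not tested, so its low level is uncertain. Length here is that of all exons of a gene together (17074 bases for Acaca), and the order by another length was not tested. Sterol genes as a class lay between 287 and 5977 per kb over all 6 libraries, fatty acid genes between 250 and 32841, and regulators between 1351 (Scap) and 6668 (Srebf1). The ranges over the 6 libraries overlapped in 24 of the 27 pairs of neighbours in this order. They were apart for Scd2 above Srebf1, Acat2 above Scap and Idi1 above Fdps. An overlap of ranges does not compare the genes within a library. Pmvk, for example, stood above its neighbour Mvk in every library, and Srebf2 above Dhcr7.

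**Figure D1:**
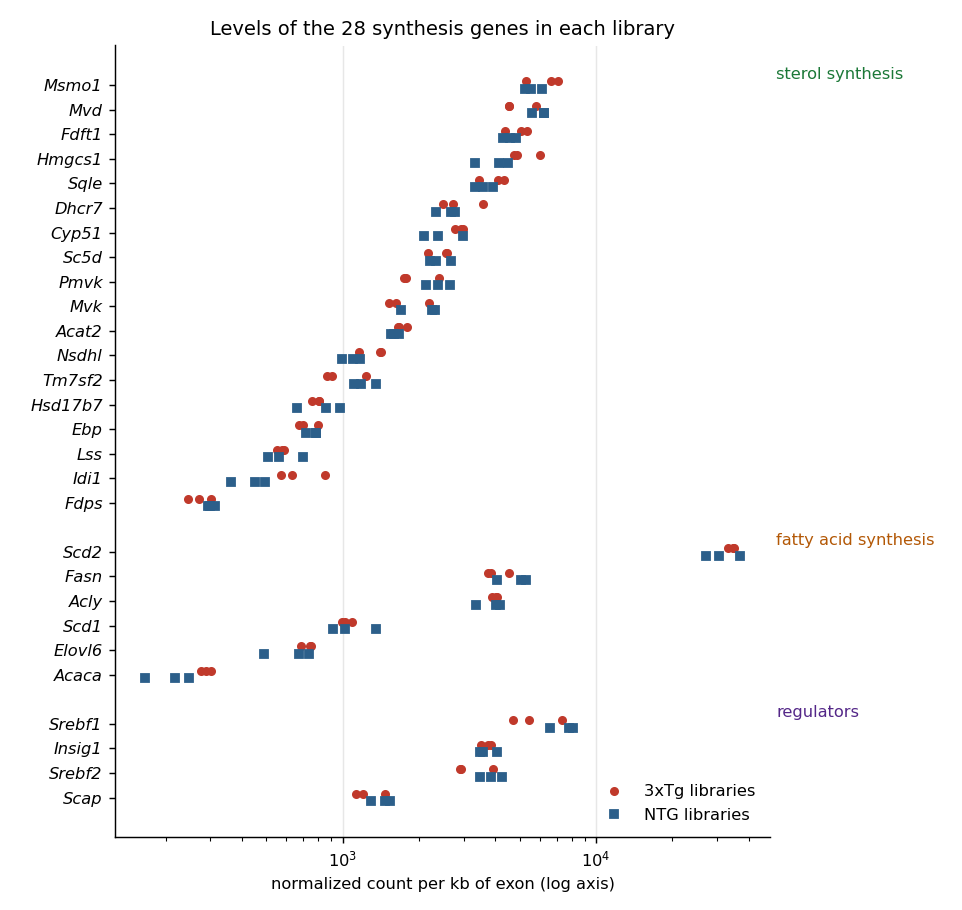
Normalized count per kb of exon (log axis) of each of the 28 genes in the 3 3xTg libraries (circles) and the 3 NTG libraries (squares), by class and ordered by mean level. Scd2 lies far above the others at 34161 in 3xTg and 31521 in NTG, and for 25 of the 28 genes the circles and squares overlap.

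The study compared 3xTg with NTG cells to learn which genes differ early in this model. None of the 28 passed the test in either direction (limma on log2 normalized counts, a threshold of 0.05 on the adjusted p and of 0.5 on the size of the log2 fold change), where 2.8% of all tested genes did (1.13% higher, 1.67% lower in 3xTg). At an unadjusted p under 0.05 there were 4 genes with a positive fold change (Idi1, Acaca, Hmgcs1, Nsdhl) and 2 with a negative one (Srebf1, Mvd), 6 of 28 in all, against 23.5% of all tested genes. With edgeR on the reads none passed (2.84% of all genes did), and with DESeq2 Idi1 did (adjusted p = 0.00985, log2 fold change 0.64; 7.77% of all genes with an adjusted p passed). Idi1 also passed with array weights (14.0% of all genes did) and with the replicate number as a block (4.03% did).

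Every 3xTg library lay above every NTG library for Idi1, Acaca and Hmgcs1, and for no gene did every 3xTg library lie below. That is 3 of 28, where the groups did not overlap in 27.7% of all tested genes (15.1% higher, 12.6% lower). The shares among the synthesis genes were thus no larger than those of the genes at large. Fold changes were also smaller in size: 27 of the 28 lay within 0.5 of 0 on the log2 scale (96.4%), against 79.5% of all tested genes, and their median size was 0.17, against 0.24 for all. The 28 were well above the expression filter, whereas all tested genes include those down to a mean count of 10.

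A missed threshold does not show that levels were alike. The 95% intervals of the log2 fold changes, 3xTg minus NTG, ran from -0.77 (Srebf1) to 1.01 (Idi1) over the 28 genes. For 27 genes the interval lay within 1 in either direction, so that a doubling or halving was outside it, and for 14 it lay within 0.5.

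By class, the median log2 fold change was 0.054 for the 18 sterol genes (10 above 0, 8 below), 0.092 for the 6 fatty acid genes (4 above, 2 below) and -0.22 for the 4 regulators (1 above, 3 below). All tested genes had a median of 0.0071, with 9483 above 0 and 9181 below. No class had a gene that passed by limma or edgeR.

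The upper sterol route leads from acetyl-CoA to squalene and has 8 genes on the list. Idi1 (chromosome 13, 8885501 to 8892451, plus strand, GRCm38), the isomerase that makes the reactive isoprenoid unit, had normalized counts of 1994, 2977 and 2214 in the 3xTg libraries (replicates 1 to 3), against 1722, 1573 and 1275 in the NTG libraries. The groups did not overlap, with replicate 2 highest among 3xTg and replicate 3 lowest among NTG. The means were 2395 ± 516 in 3xTg and 1524 ± 228 in NTG (SD, n = 3 each), a log2 fold change of 0.64 (SE 0.17, limma adjusted p = 0.0732). An exact two-sided permutation test gave 0.1, the smallest p that 3 against 3 libraries allow.

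The call on Idi1 turned on single libraries. Without 3xTg replicate 1 it passed (log2 fold change 0.76, limma adjusted p = 0.0273; 10.9% of all genes then passed), and without 3xTg replicate 2 the fold change was 0.47 (adjusted p = 0.268). Without NTG replicate 3 it was 0.52 (adjusted p = 0.136). A processed pseudogene, Gm13502, is identical to Idi1 over 684 bases and was counted at 49.8 in 3xTg and 41.1 in NTG on average. How reads of the shared stretch were divided between them was not tested.

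Hmgcs1 (chromosome 13, 119690379 to 119708260, plus strand), the cytosolic HMG-CoA synthase and the gene with the sterol regulatory element printed above, had 21839, 27469 and 22344 in 3xTg, against 20653, 19060 and 15232 in NTG. As for Idi1, 3xTg replicate 2 was the highest library and NTG replicate 3 the lowest. Means were 23884 ± 3115 in 3xTg and 18315 ± 2786 in NTG (SD, n = 3 each), a log2 fold change of 0.39 (SE 0.14, limma adjusted p = 0.154), and 0.26 without NTG replicate 3 (adjusted p = 0.334).

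The kinases and the decarboxylase between these enzymes had negative fold changes. Mvd (chromosome 8, 122433601 to 122443422, minus strand), which makes isopentenyl diphosphate, had 10754, 8422 and 8457 in 3xTg, against 11568, 10421 and 11607 in NTG. Only 3xTg replicate 1 reached the NTG range, and the log2 fold change was -0.29 (SE 0.12, limma adjusted p = 0.189), or -0.41 without that library (adjusted p = 0.0338, still short of 0.5 in size). Pmvk, phosphomevalonate kinase, had 4124, 2977 and 3050 in 3xTg, against 4077, 3642 and 4533 in NTG. Mvk, mevalonate kinase, had 5837, 4356 and 4085 in 3xTg, against 5998, 4526 and 6170 in NTG. In both, 3xTg replicate 1 lay within the NTG range and 3xTg replicates 2 and 3 below it, and the log2 fold changes were -0.28 for Pmvk and -0.23 for Mvk (limma adjusted p of 0.261 and 0.411).

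The other 3 upper genes differed little. Acat2, the cytosolic thiolase that starts the route, had 4205, 4545 and 4230 in 3xTg, against 4037, 4241 and 3930 in NTG (log2 fold change 0.088). Fdps had 1269, 1030 and 1142 in 3xTg, against 1254, 1240 and 1313 in NTG (-0.15). Fdft1, squalene synthase, had 22557, 21375 and 18510 in 3xTg, against 20382, 18178 and 19346 in NTG (0.11).

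The groups overlapped in each of these, and the limma adjusted p values ran from 0.461 to 0.601. Acat2 shares 97.7% of 1477 bases with its neighbour Acat3 and has a stretch of 445 bases at 98.7% identity with Tcp1, and Fdft1 shares 774 exon bases with Ctsb on the opposite strand, so that reads could be split between these genes.

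**Figure D2:**
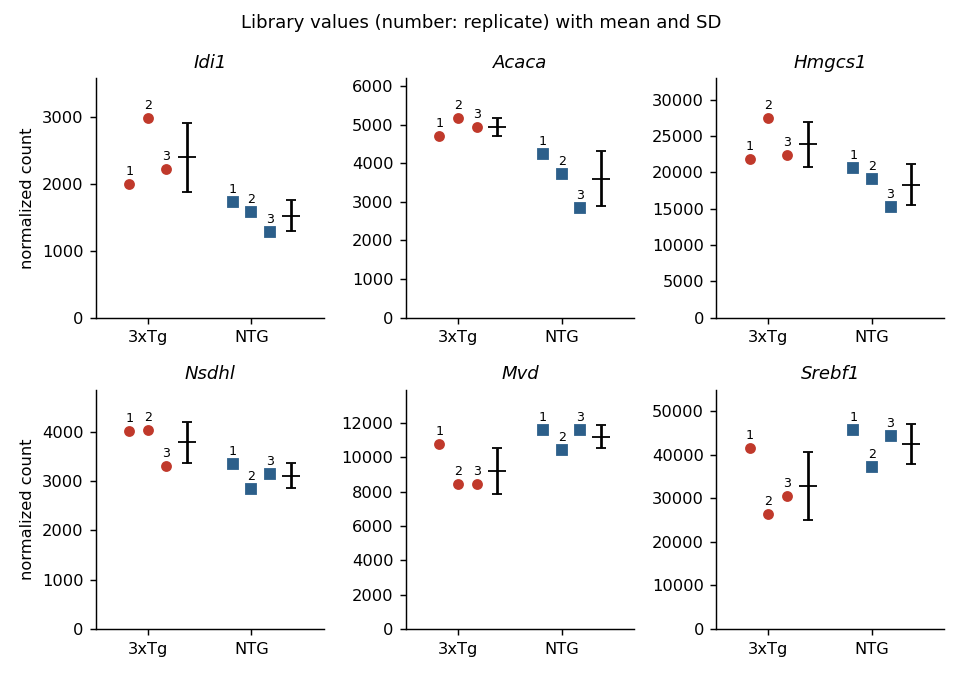
Normalized counts of the 6 genes with an unadjusted limma p under 0.05, in each 3xTg library (circles, left) and each NTG library (squares, right), numbered by replicate, with the mean and SD beside them (n = 3 each). Idi1, Acaca and Hmgcs1 do not overlap between genotypes, while 3xTg replicate 1 lies within the NTG range for Mvd and Srebf1, and 3xTg replicate 3 does so for Nsdhl.

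The lower sterol route leads from squalene to cholesterol and has 10 genes on the list. Nsdhl (chromosome X, 72918557 to 72958514, plus strand), the sterol dehydrogenase that removes a methyl group as carbon dioxide, had 4010, 4040 and 3302 in 3xTg, against 3337, 2844 and 3137 in NTG. Replicates 1 and 2 of 3xTg stood above all NTG libraries and replicate 3 stood among them. The log2 fold change was 0.28 (SE 0.12, limma adjusted p = 0.186).

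Cyp51, lanosterol demethylase, had 12915, 13229 and 12213 in 3xTg, against 13133, 10486 and 9217 in NTG (log2 fold change 0.24, limma adjusted p = 0.302). Its 3xTg libraries were tight and the NTG libraries spread widely, NTG replicate 3 being the lowest. Tm7sf2, a sterol reductase, leaned the other way, with 5416, 3801 and 3977 in 3xTg, against 5187, 4872 and 5943 in NTG (-0.29, limma adjusted p = 0.253). Here 3xTg replicate 1 lay within the NTG range and the others below it, and 532 exon bases are shared with Vps51 on the same strand.

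Squalene epoxidase, Sqle, which is a rate-limiting step of the lower route, had 24074, 22756 and 19049 in 3xTg, against 21797, 19896 and 18436 in NTG (log2 fold change 0.13). Msmo1 had 43387, 40693 and 32602 in 3xTg, against 37409, 32130 and 34120 in NTG (0.16). Dhcr7, which carries out a final reduction to cholesterol, had 20886, 15795 and 14415 in 3xTg, against 16172, 13557 and 15494 in NTG (0.16). In each of these 3xTg replicate 1 was the highest of the 6 libraries and 3xTg replicate 3 lay within the NTG range, and 3xTg replicate 2 was above that range for Sqle and Msmo1 and within it for Dhcr7.

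Lanosterol synthase, Lss, had 6324, 5929 and 6220 in 3xTg, against 7551, 6063 and 5480 in NTG (log2 fold change -0.035). Hsd17b7, which reduces a sterol ketone, had 4104, 4114 and 3850 in 3xTg, against 4971, 4375 and 3384 in NTG (-0.060). For both, the 3xTg libraries fell inside the wider span of the NTG libraries.

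The sterol isomerase Ebp had 1845, 1610 and 1554 in 3xTg, against 1808, 1819 and 1655 in NTG (log2 fold change -0.079), and the desaturase Sc5d had 12386, 12524 and 10589 in 3xTg, against 12983, 11323 and 10726 in NTG (0.020). Over the 10 lower genes the limma adjusted p ranged from 0.186 (Nsdhl) to 0.934 (Sc5d), and 6 fold changes were above 0 and 4 below.

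Among the fatty acid genes, Acaca (chromosome 11, 84129672 to 84401651, plus strand), which makes malonyl-CoA, the committed step, had 4698, 5161 and 4935 in 3xTg, against 4232, 3723 and 2837 in NTG. The 3xTg libraries lay close together and above all NTG libraries, of which replicate 3 was far the lowest. Means were 4932 ± 231 in 3xTg and 3598 ± 706 in NTG (SD, n = 3 each), a log2 fold change of 0.47 (SE 0.14, limma adjusted p = 0.102; exact permutation p = 0.1). It was 0.31 without NTG replicate 3 (limma adjusted p = 0.174) and 0.60 without NTG replicate 1 (0.108).

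Fasn, fatty acid synthase, which takes the malonyl-CoA, did not follow it: counts were 49760, 42144 and 40929 in 3xTg, against 57744, 55432 and 44573 in NTG (log2 fold change -0.24, SE 0.14, limma adjusted p = 0.325). Here NTG replicates 1 and 2 were the highest. Acly, ATP citrate lyase, which supplies cytosolic acetyl-CoA, had 21432, 21277 and 20443 in 3xTg, against 21976, 21252 and 17766 in NTG (0.056, limma adjusted p = 0.797). Its groups overlapped almost wholly apart from the low NTG replicate 3.

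Elovl6, the elongase of long saturated chains, had 4832, 4793 and 4407 in 3xTg, against 4753, 4336 and 3156 in NTG (log2 fold change 0.22, limma adjusted p = 0.392). Scd2 had 188683, 190632 and 180651 in 3xTg, against 201731, 166399 and 148558 in NTG (0.13, adjusted p = 0.680). Scd1, the related desaturase that dominates in liver, had 5330, 4986 and 4877 in 3xTg, against 6638, 4497 and 4978 in NTG (-0.066, adjusted p = 0.807).

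In each of these 3 the groups overlapped, and NTG replicate 3 was the lowest of the 6 libraries for Elovl6 and Scd2. Per length, Scd2 was 33.0 ± 1.27 times as abundant as Scd1 in 3xTg and 29.0 ± 3.57 times in NTG (SD, n = 3 each; exact permutation p = 0.2 on the log2 ratio). These transcripts share 623 bases at 95.5% identity, which leaves the ratio somewhat uncertain.

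Of the regulators, Srebf1 (chromosome 11, 60199089 to 60222581, minus strand) had 41423, 26429 and 30495 in 3xTg, against 45728, 37102 and 44220 in NTG. Replicates 2 and 3 of 3xTg were below every NTG library and replicate 1 was among them. Means were 32782 ± 7754 in 3xTg and 42350 ± 4607 in NTG (SD, n = 3 each), a log2 fold change of -0.39 (SE 0.17, limma adjusted p = 0.207). Without 3xTg replicate 1 it passed, at -0.57 (limma adjusted p = 0.0301), and without 3xTg replicate 2 it was -0.25 (adjusted p = 0.594). The gene table does not separate the isoforms that Srebf1 encodes.

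Srebf2, which encodes the SREBP that acts mainly on sterol genes, had 28054, 20882 and 21125 in 3xTg, against 27696, 25122 and 30604 in NTG (log2 fold change -0.26, limma adjusted p = 0.293). Scap, the escort of the SREBPs, had 10895, 8419 and 8977 in 3xTg, against 10935, 9622 and 11479 in NTG (-0.18, adjusted p = 0.390). The pattern of Srebf1 was repeated in both, with 3xTg replicate 1 inside the NTG range and the other 3xTg libraries below it. Insig1, which retains the SREBP complex and is itself a target of SREBPs, had 11588, 10875 and 11950 in 3xTg, against 12528, 10724 and 11075 in NTG (0.0058, adjusted p = 0.977).

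The balance between regulators was taken per length. The level of Srebf1 over that of Srebf2 was 1.78 ± 0.145 in 3xTg and 1.94 ± 0.142 in NTG (SD, n = 3 each; exact permutation p = 0.2 on the log2 ratio), and that of Insig1 over Scap was 2.96 ± 0.348 in 3xTg and 2.59 ± 0.233 in NTG (exact permutation p = 0.3).

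**Figure D3:**
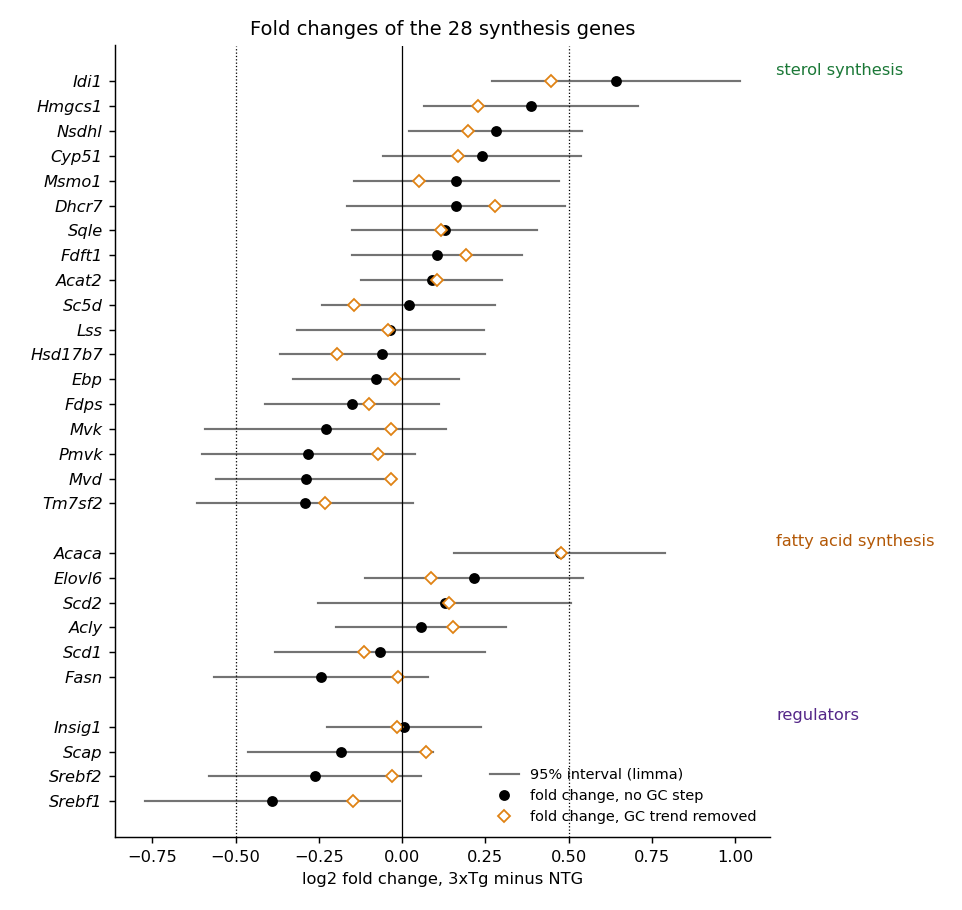
Log2 fold change (3xTg minus NTG) of each gene with its 95% limma interval (dots and lines), and the fold change after the GC trend of each library was removed (open diamonds), by class; dotted lines mark 0.5 in size. Idi1, at 0.64, is the only dot beyond them, and its diamond lies at 0.45.

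Within the list, fold changes went with the GC content of the transcripts. The 15 genes below 50% GC had a median log2 fold change of 0.13, with 12 above 0 and 3 below, and the 13 at or above 50% GC had a median of -0.23, with 3 above 0 and 10 below. Across the 28 genes Spearman's rho was -0.71 and Pearson's r -0.74 (across the 18 sterol genes, rho of -0.68 and r of -0.73), and across all 18644 tested genes with a GC value rho was -0.43. These are correlations across genes from the same 6 libraries, and genes are not independent replicates. Idi1 has the lowest GC content of the 28 (41.9%) and Hmgcs1 the third lowest (43.1%), whereas Mvd, Srebf1, Srebf2, Fasn and Scap lie between 57.9% and 59.1%.

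After the GC trend was removed from each library, rho across the 28 genes was -0.20, and the median fold change was 0.11 below 50% GC and -0.029 at or above it. Srebf1 then had a log2 fold change of -0.15 (limma adjusted p = 0.576), Mvd -0.035 (0.872), Fasn -0.013 (0.972) and Hmgcs1 0.23 (0.268). Acaca kept its value, 0.48 (limma adjusted p = 0.0872), and Idi1 had 0.45 (0.0723). Srebf2 had -0.029 (limma adjusted p = 0.905) and Scap 0.073 (0.695). The class medians were then 0.016 for the sterol genes, 0.11 for the fatty acid genes and -0.023 for the regulators, against 0.043 for all tested genes. None of the 28 passed (2.63% of all genes did).

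**Figure D4:**
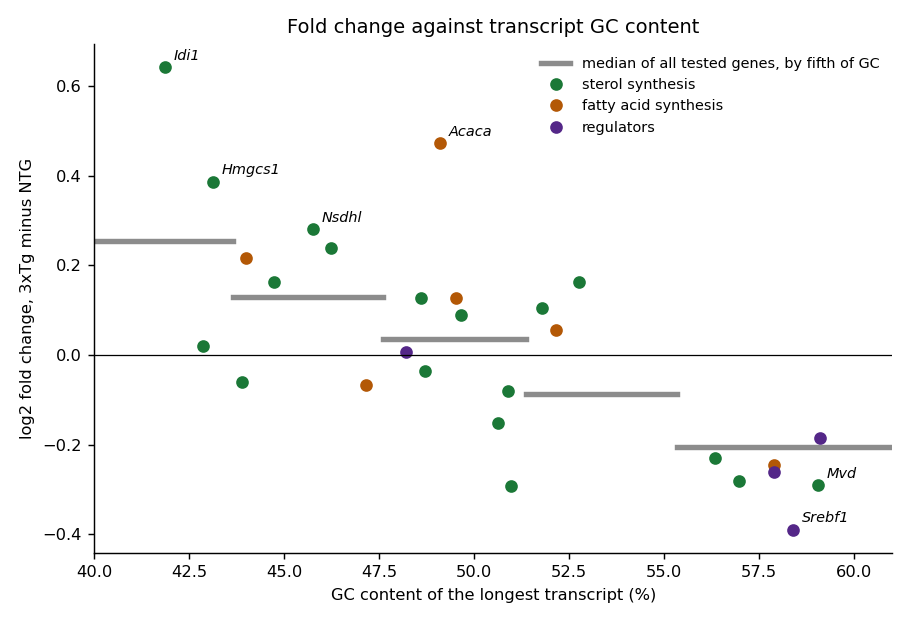
Log2 fold change (3xTg minus NTG) of the 28 genes against the GC content of their longest transcript in percent, coloured by class, with the 6 genes of unadjusted p under 0.05 named; grey lines are the medians of all tested genes in each quintile of GC content, the outer quintiles reaching beyond the axis. Members and grey medians both slope downwards, with Acaca at 0.47 well above the line of its quintile.

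The libraries of the 2 genotypes overlapped for 25 of the 28 genes, against 13503 of all 18664 tested genes. 3xTg replicate 1 lay within the NTG range for 18 of the 28 genes, against 8 for 3xTg replicate 2 and 14 for 3xTg replicate 3. It was the highest 3xTg library for 18 genes, Srebf1, Srebf2, Mvd and Mvk among them. Among NTG, replicate 3 was the lowest of all 6 libraries for 11 of the 28 genes (39.3%, against 27.9% of all tested genes), among them Idi1, Hmgcs1, Cyp51, Acaca, Elovl6, Acly and Scd2, and the highest of all 6 for 7. Replicate 1 of NTG was the highest of all 6 for 9 genes (32.1%, against 10.9% of all tested genes). NTG replicate 3 is also the library with the lowest myelin marker sum (309927), and the part of myelinating cells in these low values was not tested.

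**Figure D5:**
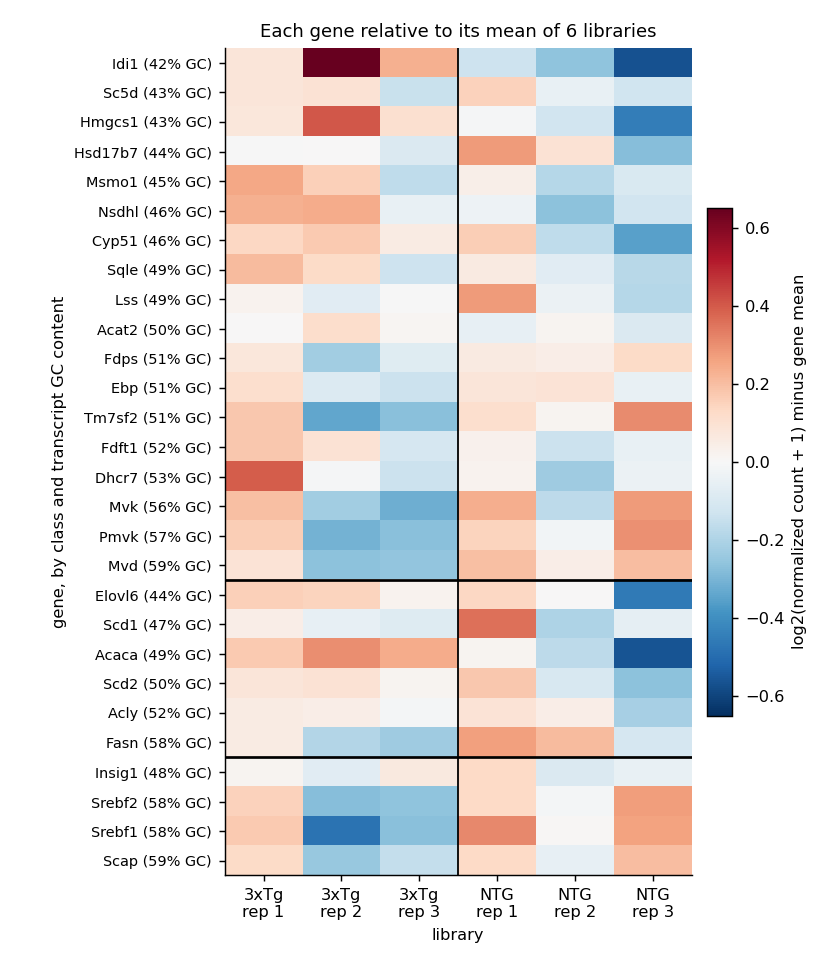
Colour gives log2(normalized count + 1) minus the mean of the 6 libraries for each of the 28 genes (rows, by class and then by rising GC content) in the 3 3xTg libraries (left) and the 3 NTG libraries (right). In 3xTg replicates 2 and 3 and in NTG replicate 3 the colour changes with GC content in opposite senses, while 3xTg replicate 1 is near or above the mean for every gene.

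The other genes of these pathways were read from lists of their own, and 1 of their 98 tested genes passed, where 2.8% of all tested genes did. Oxsm, the condensing enzyme of the mitochondrial fatty acid synthase, was lower in 3xTg, with normalized counts of 55.6, 60.2 and 41.6 in 3xTg, against 191, 154 and 234 in NTG. The groups were far apart, at a log2 fold change of -1.85 (SE 0.25, limma adjusted p = 0.00472), and the call held without any single library (adjusted p of 0.00688 to 0.0312), with edgeR and with the GC trend removed. Its list, 25 tested genes of fatty acid synthesis, elongation and desaturation, had a median of -0.037, with 11 above 0 and 14 below. At its ends Elovl7, an elongase of very long chains, had a fold change of 0.78 (limma adjusted p = 0.130), Hsd17b12, a reductase of the elongation cycle, 0.26 (0.185), and the desaturases Scd4 and Scd3 -1.07 (0.0767) and -0.57 (0.214). DESeq2 also passed Elovl7, Scd4 and the desaturase family gene Fads6 (limma log2 fold change -0.52).

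The 5 other lists had no gene that passed by limma or edgeR. At an unadjusted limma p under 0.05, 1 of 5 further sterol synthesis genes, 7 of 15 SREBP regulators, 5 of 23 transport genes, 4 of 18 activation genes and 4 of 12 isoprenoid genes were counted, against 23.5% of all tested genes, and DESeq2 passed Lcat alone among them. Of the 5 further sterol synthesis genes the median was -0.090. The lowest were Por, the electron donor of Cyp51 and Sqle, with a log2 fold change of -0.35 (limma adjusted p = 0.180) and Fdx1, a ferredoxin, with -0.16 (0.463). The 15 other regulators of SREBP had a median of 0.0061, from -0.53 for Nr1h3, the sterol receptor LXR alpha, and -0.34 for Nr1h2, LXR beta, to 0.41 for Mbtps2, a protease that releases SREBPs, and 0.45 for Rnf139, a ubiquitin ligase of the endoplasmic reticulum (limma adjusted p of 0.0791 to 0.189).

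Uptake, transport and efflux of sterols was the list with the most fold changes below 0, 18 of 23 tested, with a median of -0.17 and -0.11 once the GC trend was removed. Lcat, which esterifies cholesterol on lipoproteins, had 21147, 16923 and 16719 in 3xTg, against 26216, 23228 and 29415 in NTG (log2 fold change -0.53, limma adjusted p = 0.0707). Its groups did not overlap, yet it did not pass by limma. With the GC trend removed Stard4, a sterol carrier, passed in its place (-0.55, limma adjusted p = 0.0335), and Lcat had -0.35 (0.128). Lipa, the lysosomal lipase, and Abca1, the cholesterol exporter, had 0.18 and 0.28 (limma adjusted p of 0.370 and 0.515).

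Fatty acid activation and glycerolipid synthesis had 18 genes and a median of -0.026. Its ends were Acsl4 at 0.50 and Acsl3 at 0.36, both acyl-CoA synthetases, and Lpin3, a phosphatidate phosphatase, at -0.32 and Agpat1, an acyltransferase, at -0.27 (limma adjusted p of 0.141 to 0.395). The isoprenoid branch, which takes products of Fdps into protein prenylation, dolichol and ubiquinone, had 12 genes and a median of 0.11, with Ggps1, which makes geranylgeranyl diphosphate, at 0.44, Nus1, a subunit of the dolichol synthase, at 0.32, Fntb, a subunit of the farnesyltransferase, at -0.49, and Icmt, which methylates prenylated proteins, at -0.16 (adjusted p of 0.0594 to 0.377).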

How the data were processed

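The authors aligned reads of SMART-Seq v4 and Nextera XT libraries to GRCm38 (mm10) with HISAT2, assigned them to genes with featureCounts and deposited counts normalized with DESeq2 (unit signal: 1 size factor per library). The deposited table also holds the authors' mean, log2 fold changes with their error, test score and weights, and p-values, none of which were used. The submitters' processing notes also name SAMtools and MultiQC, and versions are not given in the sources used here. All values were whole reads times 1 factor per library within 0.01 (100%), and reads were recovered. GENCODE M21 supplied positions, exon lengths and GC for 55230 of the 55471 genes (241 had no match).

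Genes averaging 10 or more (18664) entered limma 3.58.1 (R 4.3.3, mean-variance trend, no block) as log2 of the normalized count plus a pseudocount of 1. Fold changes are 3xTg minus NTG on that scale, and p-values were adjusted after Benjamini and Hochberg. Recovered reads were tested with edgeR 4.0.16 and DESeq2 1.42.0. The p-values measure the spread between 3 libraries a group. All 28 genes are named, and of each other pathway list the genes that passed and the 2 largest and 2 smallest fold changes beyond them. Fads6, Stard4 and the near copies were named after their values were seen, and some genes that this rule names are not reported here. Members and lists were chosen with earlier results of these data known. Alternatives were pseudocounts of 0.5 and 5, no filter or a mean of 50, TMM and upper quartile scaling, array weights, a replicate block, removal of each library's GC trend (loess, span 0.3), no minimum fold change and leaving out each library. The fit was tested on simulated data. Near copies were found with BLAST 2.17.0 (at least 150 bases, 95% identity). Other steps used Python 3.11.15 with pandas 2.3.3, scipy 1.17.1 and, for plots, matplotlib 3.10.9.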

Additional observations from a re-analysis of the deposited data

How the results depend on the processing

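No fatty acid gene passed both thresholds under any alternative, and of the other 22 only Idi1 and Srebf1 ever did. The limma adjusted p alone fell under 0.05 in some alternative for Mvd (lowest 0.0143), Tm7sf2 (0.0213) and Fasn (0.0232). It did so also for Pmvk (0.0278), Acaca (0.0321) and Srebf2 (0.0398). In those alternatives their fold changes were short of 0.5 in size. Of all tested genes 522 passed, against 1337 with DESeq2, 2604 with array weights, 752 with a replicate block and 163 to 2030 with 1 library left out (163 without 3xTg replicate 2, 166 without 3xTg replicate 3, 205 and 270 without NTG replicates 1 and 2, 378 without NTG replicate 3, 2030 without 3xTg replicate 1). Leaving out 1 library gave 0 to 1 sterol gene and 0 to 1 regulator. Idi1 passed with DESeq2 (1 sterol gene, log2 fold change 0.64), array weights (1, 0.52) and the replicate block (1, 0.64, limma adjusted p = 0.0444). Same-numbered libraries deviated together only weakly (correlations of 0.063, 0.20 and 0.038), so that the numbers were not taken to pair the samples. A further 2 alternatives were chosen after seeing the data. Without 3xTg replicate 1 and NTG replicate 3 together, 2249 genes passed, with 1 sterol gene (Idi1, 0.64) and 1 regulator (Srebf1, -0.54). With the GC trend removed and 3xTg replicate 1 left out, 1210 passed, with 1 sterol gene (Idi1, 0.50) and 0 regulators.

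Signs turned for 11 of the 28 genes, none of which passed under any alternative. Sc5d had -0.021 and Insig1 -0.035 with upper quartile scaling, and Insig1 -0.0050 with DESeq2. Array weights gave Fdft1 -0.013, Sqle -0.045, Msmo1 -0.016, Sc5d -0.13, Dhcr7 -0.0055, Acly -0.035 and Insig1 -0.0072. Removing the GC trend gave Sc5d -0.15, Scap 0.073 and Insig1 -0.016, and without 3xTg replicate 1 besides Msmo1 -0.077, Sc5d -0.24, Scap 0.042 and Insig1 -0.040. Without the 2 libraries together, Sqle had -0.00030, Sc5d -0.074, Acly -0.051 and Insig1 -0.024. With 1 library left out, values ran from -0.039 to 0.098 for Sc5d, -0.039 to 0.073 for Insig1, -0.14 to 0.095 for Lss, -0.21 to 0.063 for Hsd17b7, -0.18 to 0.097 for Scd1 and -0.038 to 0.12 for Acly. The cause was not tested. The lowest library value of the 28 genes was a normalized count of 1030, and the precision rests on 3 libraries a group.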

Other observations

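Near copies of the synthesis genes were read beside them, and those named here were chosen after their values were seen. A short processed pseudogene of Insig1, Gm37784 (chromosome 3, 69963282 to 69963470, 98.9% identical to Insig1 over 189 bases), had normalized counts of 0, 2.81 and 2.23 in 3xTg, against 63.2, 53.3 and 60.6 in NTG. The groups did not overlap, at a fitted log2 fold change of -4.70 (limma adjusted p = 0.00165), while Insig1 itself had means of 11471 in 3xTg and 11442 in NTG. Acat3, beside Acat2 on chromosome 17, had 1862, 1669 and 1609 in 3xTg, against 1507, 1623 and 1790 in NTG (log2 fold change 0.064, limma adjusted p = 0.766). Per length, Acat2 was 2.42 ± 0.234 times as abundant as Acat3 in 3xTg and 2.38 ± 0.250 times in NTG (SD, n = 3 each; exact permutation p = 0.6 on the log2 ratio).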
